A study of Homo sapiens with 8 samples.

Results

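ZNF10 encodes a KRAB zinc finger protein, and TRIM28, SETDB1, ATF7IP, CBX1, CBX3, CBX5, MPHOSPH8, PPHLN1 and MORC2 encode proteins through which a KRAB domain silences chromatin. These 10 genes were taken by symbol from the 60332 genes of the deposited expression matrix, in which each had 1 row. ZNF10 was chosen by its own change between eKD2 and control cells in these data, so that change is described without a test. The other 9 genes, called co-repressors here, were chosen by their role. All 10 had a mean of at least 1 FPKM (a level corrected for transcript length and library size) over the 8 libraries and were among the 15175 genes tested. ZNF10 was above that level in every library, controls included.

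Libraries came from 2 established Ewing sarcoma cell lines, RD-ES and SK-N-MC, each with 2 control and 2 eKD2 libraries. The question of the design was what changes when an enhancer of LOXHD1 is silenced. eKD2 cells had received a lentivirus for dCas9-KRAB, in which a KRAB repressor domain is joined to a Cas9 that cannot cut DNA. Its guide RNA was aimed next to the GGAA repeat in that enhancer. Controls are an empty dCas9-KRAB virus in the sample labels, while the text of the study speaks of parental cells, so whether control cells also carry a KRAB domain is not settled by the sources. The labels give a multiplicity of infection of 10, puromycin at 1 µg/ml for 3 days and use within 5 passages.

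In KRAB silencing, a zinc finger protein binds DNA with its fingers, and its KRAB domain recruits TRIM28 (KAP1), a scaffold protein. TRIM28 brings in SETDB1, which trimethylates histone H3 at lysine 9 and is stabilized by ATF7IP, and the HP1 proteins CBX1, CBX3 and CBX5 bind that mark. The HUSH complex, which contains MPHOSPH8 and PPHLN1, also reads the mark and works with the ATPase MORC2. dCas9-KRAB uses the same route, and the KRAB domain in constructs of this design is the one of ZNF10 (KOX1).

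Because that domain links ZNF10 to the construct, the ZNF10 exon with the KRAB-like stretch is shown first. Whether the domain in the construct extends beyond this exon was not examined. The KRAB-like stretch of ZNF10 lies in exon 3 of 5 of its transcript of 4406 bases, at chr12:133727614-133727740 on the plus strand of GRCh37 (GENCODE v44lift37), an exon of 127 bases and 2.88% of the transcript. All 127 bases are coding, in a protein of 573 residues with 10 C2H2 fingers. The matching exons of ZNF140 (chr12:133659689-133659815) and ZNF268 (chr12:133768075-133768201), its neighbours on the same strand and of the same exon length, are set beside it. Capitals mark the 33 bases that code for the KRAB-like stretch found in the translated transcript.
ZNF10: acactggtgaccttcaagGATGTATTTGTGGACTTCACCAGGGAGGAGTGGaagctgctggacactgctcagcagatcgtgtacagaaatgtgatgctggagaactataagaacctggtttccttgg
ZNF140: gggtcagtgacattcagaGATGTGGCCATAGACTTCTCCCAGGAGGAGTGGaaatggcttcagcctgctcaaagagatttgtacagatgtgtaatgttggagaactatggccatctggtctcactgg
ZNF268: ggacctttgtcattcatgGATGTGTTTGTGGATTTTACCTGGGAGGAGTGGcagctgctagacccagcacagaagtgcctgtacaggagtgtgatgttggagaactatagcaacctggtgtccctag
Aligned without gaps, the ZNF140 exon has 82 of 127 bases in common with that of ZNF10 (64.6%) and the ZNF268 exon 98 (77.2%), and the longest identical run is 12 bases for both. A read of 75 bases from the ZNF10 exon is therefore not identical to either neighbour. All 201 windows of 75 bases that touch this exon also occur in ENSG00000256825 (AC026786.1), a gene annotated over the same exons, and over the whole transcript 429 of 4332 windows (9.90%) are shared, with that gene alone.

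Facts of the whole series are given in brief. The number of reads is not in the matrix. From steps of whole reads in 16.9% to 29.4% of low genes, the depth of the other libraries was 0.249 to 0.831 of that of SK-N-MC control 1, which is rough, and RD-ES eKD2 1 was the shallowest. Across genes, which are not independent of each other, r between replicates was 0.937 to 0.945. LOXHD1, the target, was 95.2% lower in RD-ES eKD2 (21.4 and 21.2 FPKM in control, 1.04 and 1.02 in eKD2) and 93.0% lower in SK-N-MC eKD2 (159 and 169 FPKM in control, 11.0 and 11.95 in eKD2). The Ewing sarcoma markers CD99, NKX2-2, NR0B1, STEAP1, PRKCB and LIPI were present in every library, and CD3E, KRT5 and TH were listed at 0 in all. PTPRC, a leukocyte marker, was at 19.2 to 22.6 FPKM in SK-N-MC and at most 0.0173 in RD-ES. The neuroblastoma marker HAND2 was at 8.50 to 13.0 FPKM over the 8 libraries.

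ZNF10 was low in control cells of both lines and high in eKD2 cells of both. The RD-ES controls were at 8.89 and 9.68 FPKM and the RD-ES eKD2 libraries at 56.1 and 49.0. The SK-N-MC controls were at 7.65 and 10.2 FPKM and the SK-N-MC eKD2 libraries at 65.1 and 59.6. Every eKD2 library lay above every control library, across lines as well as within them. The means went from 9.28 ± 0.562 to 52.5 ± 5.03 FPKM in RD-ES, 5.66 times as high, and from 8.94 ± 1.82 to 62.4 ± 3.82 FPKM in SK-N-MC, 6.97 times as high (SD, n = 2 each). On the log2(FPKM + 1) scale, which understates the change of low genes, the difference was 2.38 for RD-ES and 2.68 for SK-N-MC. By the size of a higher value ZNF10 was ranked 91 and 86 of 15175 genes. Since ZNF10 was chosen by this change, its rank is a description only.

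Among 436 tested genes with a symbol of ZNF and a number, ZNF10 was at place 165 and 146 by level in the RD-ES control libraries and at 10 and 14 in the eKD2 libraries. In SK-N-MC the places were 214 and 149 in control and 8 and 9 in eKD2. It thus went from the middle of the zinc finger genes to among their most abundant. The FPKM value is 1 number per gene and does not show on which exon the reads lie, so reads from the KRAB exon and from the rest of the gene cannot be told apart, and the part of the construct's KRAB sequence in the ZNF10 value was not tested. AC026786.1, which shares the exon, was listed at or next to 0 in the 4 control libraries, at 1.42 and 1.11 in RD-ES eKD2 and at 0.17 and 3.31 in SK-N-MC eKD2. Added to ZNF10, it gave 57.5 and 50.1 FPKM for RD-ES eKD2, and 65.2 and 63.0 FPKM for SK-N-MC eKD2.

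**Figure D1:**
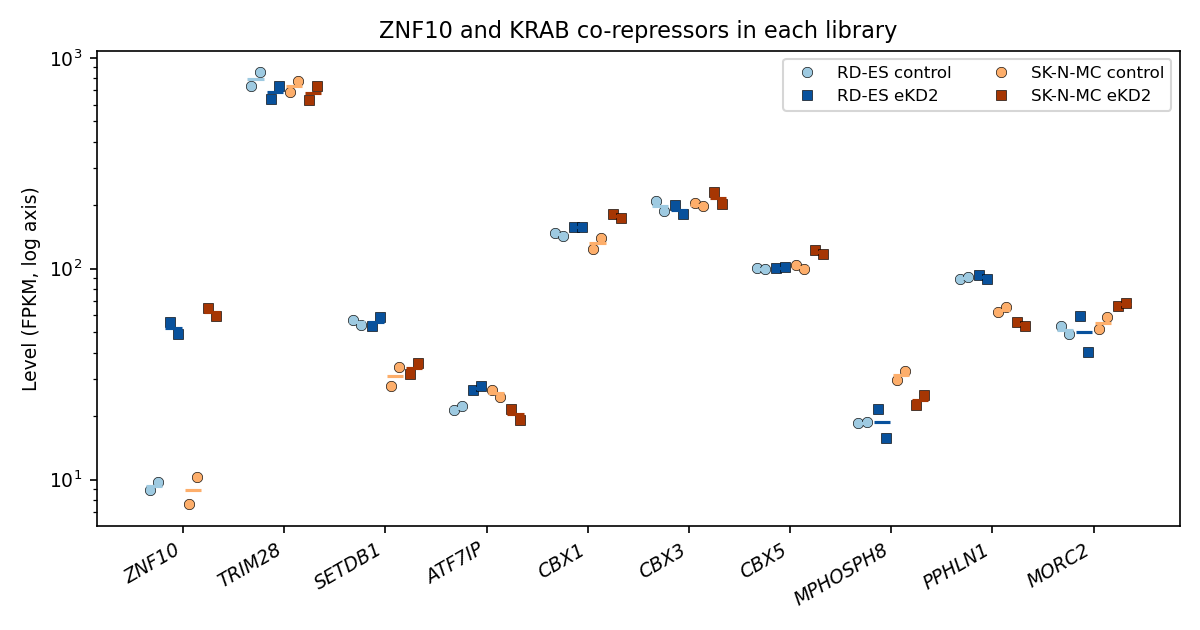
Level of ZNF10 and the 9 co-repressors (FPKM, log axis) in the 8 libraries. Each point is 1 library and the short line is the mean of the 2 libraries of a group. ZNF10 lies between 7.65 and 10.2 FPKM in all control libraries and between 49.0 and 65.1 in all eKD2 libraries, while TRIM28 lies between 634 and 853 FPKM in all 8.

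ZNF10 sits in a cluster of zinc finger genes at the end of the long arm of chromosome 12 (ZNF10, chr12:133707161-133736051, plus strand, GRCh37), and 6 of them were followed. ZNF891 lies 0.3 kb from ZNF10 on the other strand, ZNF268 21.9 kb, ZNF140 23.0 kb, ZNF84 67.3 kb, ZNF26 97.6 kb and ZNF605 174.3 kb from it. By limma 0 of 6 passed the adjusted threshold with eKD2 in RD-ES (0.343% of all genes tested) and 0 of 6 in SK-N-MC (0.323% of all). Counts of 0 of 6 are near these shares. At an unadjusted p under 0.05 there was 1 of 6 in RD-ES (12.3% of all) and 0 of 6 in SK-N-MC (13% of all). The gene was ZNF605, with 7.75 and 7.84 FPKM in RD-ES control and 12.9 and 9.73 in RD-ES eKD2 (log2 difference 0.47, adjusted p = 0.30). The adjacent ZNF891 was at 5.36 and 4.95 FPKM in the RD-ES controls, 6.32 and 5.70 in RD-ES eKD2, 3.15 and 3.11 in SK-N-MC control and 3.28 and 2.97 in SK-N-MC eKD2. ZNF268 was at 20.2 and 17.4 FPKM in the RD-ES controls, 22.4 and 16.4 in RD-ES eKD2, 11.1 and 11.1 in SK-N-MC control and 11.5 and 10.1 in SK-N-MC eKD2. Other than ZNF605 in RD-ES, the 6 neighbours differed by between -0.11 and 0.21 on the log2 scale, with adjusted p of 0.539 or more in limma. In RD-ES all 6 had a higher mean in eKD2, where 56.2% of all genes tested were higher. That count was 4 of 6 after median scaling or quantile normalization and 3 of 6 without RD-ES eKD2 1, which moved their median from 0.149 to 0.023. Between the control libraries 5 of 6, all but ZNF605, were lower in SK-N-MC with an adjusted p under 0.05 in limma. In that contrast 57.8% of all genes tested passed in either direction, and 4008 of 15175 were lower in SK-N-MC.

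**Figure D2:**
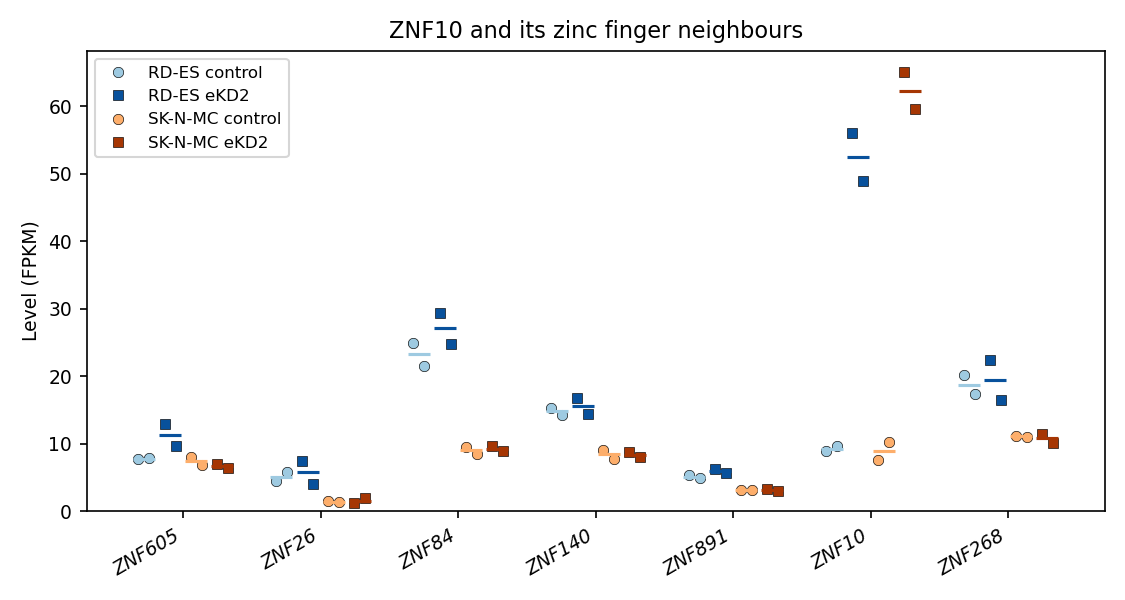
Level (FPKM) of ZNF10 and 6 neighbouring zinc finger genes in their order along the chromosome, in the 8 libraries. Points are libraries and lines are means of 2. The control and eKD2 points of ZNF10 lie between 7.65 and 10.2 and between 49.0 and 65.1 FPKM, those of ZNF605 and ZNF891 in RD-ES are apart by far less, and ZNF84, ZNF140 and ZNF268 are lower in SK-N-MC than in RD-ES.

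The RNA levels of the co-repressors were taken next, as genes of the route described for KRAB silencing. Protein was not measured, and whether dCas9-KRAB needs each of the 9 was not tested. With eKD2, 0 of 9 passed the adjusted threshold of 0.05 in RD-ES by limma, where 0.343% of all genes tested did, and 0 of 9 in SK-N-MC, where 0.323% did. Counts of 0 of 9 are near these shares, so the values and their intervals are given. At an unadjusted p under 0.05 there was 1 of 9 in RD-ES (12.3% of all genes tested) and 4 of 9 in SK-N-MC (13% of all). The control and eKD2 libraries did not overlap for 3 of 9 in RD-ES (39.3% of all) and for 6 of 9 in SK-N-MC (47.3% of all). The median size of the log2 difference, without its sign, was 0.058 for the 9 genes and 0.143 for all genes in RD-ES, and 0.238 and 0.144 in SK-N-MC.

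TRIM28, the scaffold that KRAB domains bind, was the most abundant of the 10 genes in every group, above 99.1% to 99.2% of the genes tested by its group mean. It was at 732.8 and 853.0 FPKM in RD-ES control and at 639.0 and 732.6 in RD-ES eKD2. In SK-N-MC it was at 689 and 777 FPKM in control and at 634 and 733 in eKD2. In RD-ES the lower control (732.8) and the higher eKD2 library (732.6) all but touched, and in SK-N-MC the groups overlapped. The log2 difference was -0.21 in RD-ES (95% interval -0.50 to 0.09, adjusted p = 0.539) and -0.10 in SK-N-MC (95% interval -0.40 to 0.19, adjusted p = 0.796). The RD-ES value rested on single libraries, at -0.32 without control 1 and -0.099 without control 2. In each of the 4 groups the library numbered 2 had the higher TRIM28 level, as for 13.6% of all genes tested. Per library, TRIM28 was 75.9 to 90.1 times the level of ZNF10 in control cells and 9.74 to 15.0 times in eKD2 cells.

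SETDB1, the methyltransferase, was at 57.0 and 54.3 FPKM in RD-ES control and at 53.4 and 58.7 in RD-ES eKD2. In SK-N-MC it was at 27.8 and 34.0 FPKM in control and at 31.8 and 35.8 in eKD2. The groups overlapped within each line, and SETDB1 was lower in SK-N-MC than in RD-ES in all libraries. With eKD2 the log2 difference was 0.01 in RD-ES (95% interval -0.28 to 0.30, adjusted p = 1.0) and 0.13 in SK-N-MC (95% interval -0.16 to 0.42, adjusted p = 0.717).

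ATF7IP, the partner that stabilizes SETDB1, was the only 1 of the 9 whose eKD2 and control libraries were apart in both lines and in opposite directions. It was at 21.3 and 22.2 FPKM in RD-ES control and at 26.5 and 27.8 in RD-ES eKD2, and at 26.7 and 24.7 in SK-N-MC control and 21.6 and 19.1 in SK-N-MC eKD2. Both eKD2 libraries lay above both controls in RD-ES and below both in SK-N-MC. Groups that did not overlap were common within a line (39.3% of all genes tested for RD-ES, 47.3% for SK-N-MC). The share of all genes apart in both lines with opposite signs was not counted. The pattern of ATF7IP is therefore not shown to be unusual. The log2 difference was 0.31 in RD-ES (95% interval 0.09 to 0.53) and -0.32 in SK-N-MC (95% interval -0.54 to -0.10). Neither passed the adjusted threshold (adjusted p = 0.278 and 0.242), and nor did the difference between the lines, -0.63 (95% interval -0.94 to -0.32, unadjusted p = 0.00249, adjusted p = 0.169, range over the alternatives 0.169 to 0.371). Per library, SETDB1 was 2.45 to 2.67 times the level of ATF7IP in RD-ES control, 2.01 to 2.11 in RD-ES eKD2, 1.04 to 1.38 in SK-N-MC control and 1.47 to 1.88 in SK-N-MC eKD2.

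Among the HP1 genes, CBX1 (HP1β) and CBX5 (HP1α) had higher values in SK-N-MC eKD2 and CBX3 (HP1γ) did not separate. CBX1 was at 148 and 143 FPKM in the RD-ES controls, 157 and 158 in RD-ES eKD2, 123 and 140 in SK-N-MC control and 182 and 173 in SK-N-MC eKD2. The eKD2 libraries lay above the controls in both lines, with a log2 difference of 0.12 in RD-ES (95% interval -0.07 to 0.30, adjusted p = 0.578) and 0.43 in SK-N-MC (95% interval 0.25 to 0.62, adjusted p = 0.133, range over the alternatives 0.0785 to 0.362). CBX5 was at 101 and 99.1 FPKM in RD-ES control and 100 and 102 in RD-ES eKD2. In SK-N-MC CBX5 was at 104 and 99.4 FPKM in control and 123 and 117 in eKD2. Its log2 difference was 0.02 in RD-ES (95% interval -0.13 to 0.16, adjusted p = 0.947) and 0.24 in SK-N-MC, where the groups did not overlap (95% interval 0.09 to 0.38, adjusted p = 0.209). CBX3 was at 210 and 187 FPKM in the RD-ES controls, 200 and 181 in RD-ES eKD2, 205 and 198 in SK-N-MC control and 231 and 203 in SK-N-MC eKD2, and the groups overlapped in both lines. The log2 difference of CBX3 was -0.06 in RD-ES (95% interval -0.29 to 0.18) and 0.10 in SK-N-MC (95% interval -0.13 to 0.34). The summed HP1 level was 429 to 459 FPKM in the RD-ES controls, 441 to 458 in RD-ES eKD2, 432 to 437 in SK-N-MC control and 493 to 536 in SK-N-MC eKD2. CBX3 made up 41.0% to 47.5% of that sum, CBX1 28.5% to 35.9% and CBX5 21.9% to 24.0% over the 8 libraries.

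Of the HUSH genes, MPHOSPH8, whose chromodomain reads the methyl mark, was at 18.5 and 18.7 FPKM in RD-ES control and at 21.7 and 15.8 in RD-ES eKD2. In SK-N-MC it was at 29.6 and 32.9 FPKM in control and at 22.5 and 25.3 in eKD2. The groups overlapped in RD-ES and were apart in SK-N-MC, with log2 differences of 0.00 (95% interval -0.38 to 0.37) and -0.37 (95% interval -0.75 to 0.00, adjusted p = 0.387). PPHLN1, periphilin, was at 89.1 and 90.8 FPKM in the RD-ES controls, 93.6 and 89.3 in RD-ES eKD2, 62.0 and 65.4 in SK-N-MC control and 56.0 and 53.2 in SK-N-MC eKD2. It overlapped in RD-ES and lay below control in SK-N-MC eKD2, with log2 differences of 0.02 (95% interval -0.14 to 0.18) and -0.22 (95% interval -0.38 to -0.06, adjusted p = 0.265). MORC2, the ATPase, was at 53.6 and 48.8 FPKM in RD-ES control and 59.6 and 40.1 in RD-ES eKD2. In SK-N-MC MORC2 was at 51.5 and 58.8 FPKM in control and 66.5 and 68.8 in eKD2. The eKD2 libraries of RD-ES lay on either side of the controls and those of SK-N-MC above them, with log2 differences of -0.06 (95% interval -0.51 to 0.38) and 0.29 (95% interval -0.16 to 0.74, adjusted p = 0.553).

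The change with eKD2 was also compared between the lines, as 1 contrast of the same fit. By limma 0 of 9 co-repressors passed the adjusted threshold for that difference, against 0.244% of all genes tested. At an unadjusted p under 0.05 there were 4 of 9 (13.5% of all genes), namely ATF7IP and PPHLN1 with a lower change in SK-N-MC and CBX1 and CBX5 with a higher one. The difference was 0.32 for CBX1 (adjusted p = 0.30), 0.22 for CBX5 (adjusted p = 0.333) and -0.24 for PPHLN1 (adjusted p = 0.336). For TRIM28 it was 0.11 (95% interval -0.31 to 0.52) and for SETDB1 0.12 (95% interval -0.29 to 0.53).

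**Figure D3:**
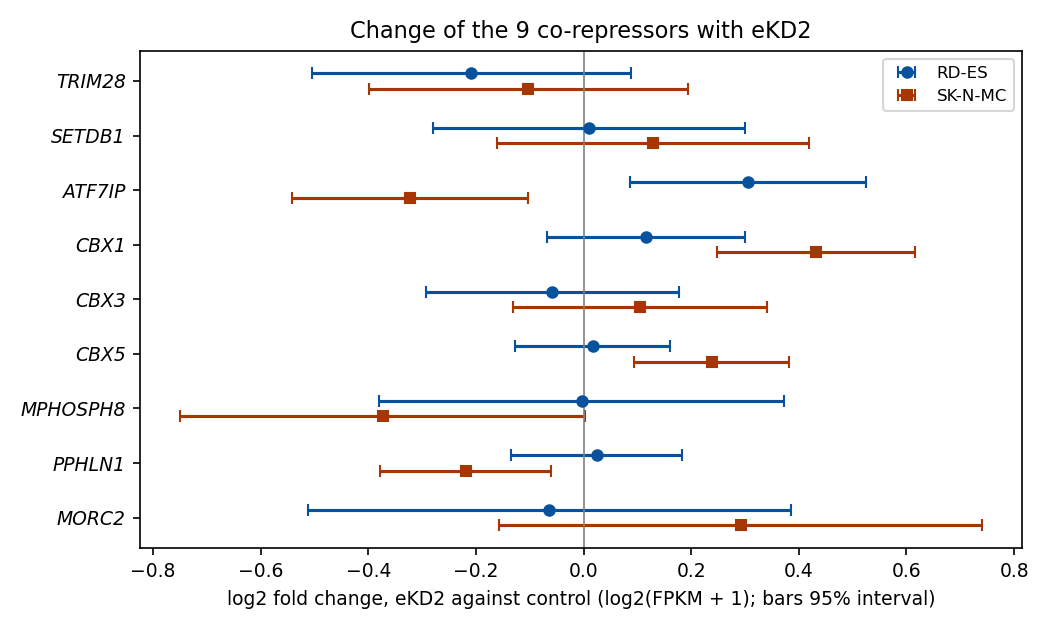
Log2 fold change of the 9 co-repressors, eKD2 against control, on the log2(FPKM + 1) scale, in RD-ES (circles) and SK-N-MC (squares). Bars are 95% intervals of the limma fit, not adjusted for the number of genes. The ATF7IP points lie at 0.31 and -0.32, on opposite sides of 0, and the interval of CBX1 in SK-N-MC runs from 0.25 to 0.62.

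Without eKD2, the levels of the machinery in the lines were compared between the control libraries, a contrast that the choice of the genes did not use. SETDB1 and PPHLN1 were lower and MPHOSPH8 was higher in SK-N-MC, and ZNF10 and TRIM28 showed no difference past the threshold. By limma 3 of 10 genes passed the adjusted threshold, a smaller share than the 57.8% of all genes tested. At an unadjusted p under 0.05 there were 4 of 10 (63% of all), the fourth being ATF7IP. The control libraries of the lines did not overlap for 5 of 10 (79.8% of all), the 3 genes above, ATF7IP and CBX1.

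SETDB1 had 1.801 times the level in RD-ES (55.6 ± 1.91 FPKM against 30.9 ± 4.36 in SK-N-MC, SD, n = 2 each, log2 difference -0.83, adjusted p = 0.00161). On its transcript 10.3% of windows of 75 bases also lie in CERS2, a gene on the other strand. CERS2 was at 198 and 222 FPKM in RD-ES control and at 110 and 103 in SK-N-MC control. The library kit did not mark strand, and the part of CERS2 reads in the SETDB1 value was not tested. PPHLN1 had 1.41 times the level in RD-ES (89.9 ± 1.22 against 63.7 ± 2.43 FPKM, SD, n = 2 each, log2 difference -0.49, adjusted p = 0.00122), and none of the windows of the transcript used is shared with another gene. Exons of 3 genes do overlap exons annotated to PPHLN1, 2 of these genes on the other strand, and their part in the PPHLN1 value was not tested. MPHOSPH8 had 1.68 times the level in SK-N-MC (31.2 ± 2.31 against 18.6 ± 0.139 FPKM, SD, n = 2 each, log2 difference 0.72, adjusted p = 0.00839). Without SK-N-MC control 2 its adjusted p was 0.0581, the highest of a range from 0.0028 over the alternatives. For ZNF10 the log2 difference was -0.06 (95% interval -0.41 to 0.29, adjusted p = 0.752), and for TRIM28 it was -0.11 (95% interval -0.41 to 0.18, adjusted p = 0.465).

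Median scaling moved the median of all genes in this contrast from 0.065 to -0.042 on the log2 scale. The 3 called genes then had log2 differences of -0.98 (SETDB1), -0.64 (PPHLN1) and 0.58 (MPHOSPH8) and still passed. CBX1 passed as well under that scaling, lower in SK-N-MC at -0.29 (adjusted p = 0.0212), whereas as deposited it was at -0.14 (adjusted p = 0.148, range over the alternatives 0.0212 to 0.539). CBX1 also passed as deposited without SK-N-MC control 2 (-0.24, adjusted p = 0.0402), and without SK-N-MC control 1 it was at -0.053.

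Since FPKM is a level per length, the 10 genes can be put in order. In RD-ES control the order from high to low was TRIM28, CBX3, CBX1, CBX5, PPHLN1, SETDB1, MORC2, ATF7IP, MPHOSPH8 and ZNF10, with no overlap between neighbours in the order. In SK-N-MC control it was TRIM28, CBX3, CBX1, CBX5, PPHLN1, MORC2, MPHOSPH8, SETDB1, ATF7IP and ZNF10, where MPHOSPH8 and SETDB1 overlapped. TRIM28 and the HP1 genes held the first 4 places in all 4 groups. ZNF10 was at place 10 in both controls, at place 7 in RD-ES eKD2, overlapping with SETDB1 and MORC2 beside it, and at place 6 in SK-N-MC eKD2, between MORC2 and PPHLN1. Genes with shared sequence limit this order. In CBX3 19.5% of windows also lie in its pseudogene CBX3P9 or in HNRNPA2B1 on the other strand, which was at 890 to 1514 FPKM, and in MORC2 26.3% also lie in MORC2-AS1, which was listed at no more than 0.102 FPKM.

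The wider pathway was followed through 8 lists written by role. In neither line did any of their 56 genes pass the adjusted threshold in limma with eKD2, and the counts at an unadjusted p under 0.05 are given (12.3% of all genes for RD-ES and 13% for SK-N-MC). Among 8 demethylases of histone H3 lysine 9 (H3K9), 8 had higher values in RD-ES eKD2, 3 of them at that p. In SK-N-MC eKD2 6 were lower, 1 of them at that p. Of all genes tested, 56.2% were higher in RD-ES eKD2 and 47.6% in SK-N-MC eKD2. After median scaling or quantile normalization 7 of 8 demethylases were higher in RD-ES. KDM3A was at 25.2 and 26.95 FPKM in RD-ES control and 37.9 and 37.0 in RD-ES eKD2 (log2 difference 0.51, adjusted p = 0.0891), and at 44.2 and 46.3 in SK-N-MC control and 46.1 and 43.3 in SK-N-MC eKD2. KDM4C in RD-ES, at 1.799 and 1.34 FPKM in control and 2.19 and 3.27 in eKD2, had a log2 difference of 0.53, which was 0.32 without eKD2 2 and 0.74 without eKD2 1. In SK-N-MC KDM4A had one of -0.20 and KDM4B one of -0.31.

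Of 5 heterochromatin H3.3 factors, ATRX, a chromatin remodeller that deposits the variant histone H3.3, was at 52.1 and 48.7 FPKM in RD-ES control and 78.4 and 62.1 in RD-ES eKD2. In SK-N-MC ATRX was at 58.1 and 56.6 FPKM in control and 105 and 139 in eKD2. All eKD2 libraries lay above all controls, and the log2 difference was 0.46 for RD-ES (adjusted p = 0.338) and 1.06 for SK-N-MC (adjusted p = 0.0926). DAXX, its partner, was lower in eKD2 of both lines. By limma its log2 difference was -0.20 in RD-ES (adjusted p = 0.372) and -0.27 in SK-N-MC (adjusted p = 0.249). H3F3B, which encodes H3.3, was at 590 and 582 FPKM in SK-N-MC control and 716 and 760 in eKD2 (log2 difference 0.33, adjusted p = 0.107). At an unadjusted p under 0.05 there were 2 of 5 in RD-ES and 3 of 5 in SK-N-MC.

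Of 10 SUMO conjugation genes, whose modification of TRIM28 helps it recruit SETDB1, 3 were at an unadjusted p under 0.05 for RD-ES and 1 for SK-N-MC. In RD-ES eKD2 PIAS4 and SUMO2 had lower values and UBA2 a higher one, none past the adjusted threshold. The ligase PIAS4 had the largest difference of these 3 (31.8 and 33.7 FPKM in control, 19.8 and 24.31 in eKD2, log2 difference -0.55, adjusted p = 0.218), and SUMO2 had a log2 difference of -0.20. UBA2, part of the enzyme that activates SUMO, had one of 0.27 in RD-ES (adjusted p = 0.337) and -0.22 in SK-N-MC. In SK-N-MC the gene at that p was PIAS2, lower in eKD2 (log2 difference -0.42, adjusted p = 0.209). Among 3 TRIM28 relatives there was none at that p for RD-ES and 1 for SK-N-MC, TRIM24 (log2 difference -0.29, adjusted p = 0.227), and TRIM33 in RD-ES and TRIM66 in SK-N-MC were at 0.11 and 0.47. Among 5 other H3K9 methyltransferases there was 1 in RD-ES, SETDB2 (1.57 and 1.52 FPKM in control, 2.23 and 2.07 in eKD2), and 0 in SK-N-MC. SUV39H2 in RD-ES was at a log2 difference of -0.21, and SETDB2 in SK-N-MC at -0.21. EHMT1 in SK-N-MC spread more within groups than between them, at 77.5 and 205 FPKM in control and 37.97 and 102 in eKD2.

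Among 5 HUSH and MORC partners there was 1 at that p in each line, MORC3 higher in RD-ES (log2 difference 0.24) and FAM208B lower in SK-N-MC (log2 difference -0.36, and 0.24 in RD-ES). Without SK-N-MC eKD2 1 or 2 the SK-N-MC value of FAM208B was -0.56 or -0.16, and without RD-ES eKD2 1 its RD-ES value was 0.15. FAM208A, the gene of the HUSH subunit TASOR, had a log2 difference of 0.14 in SK-N-MC (adjusted p = 0.679). Among 13 genes of the NuRD complex, which TRIM28 also recruits, there was 1 in RD-ES, MTA2 (log2 difference -0.19, adjusted p = 0.311), and 0 in SK-N-MC. CHD3 in RD-ES was at -0.17, and MTA3 and MBD2 in SK-N-MC at -0.27 and -0.24. Among 7 DNA methylation genes there was 1 in RD-ES, the demethylase TET1 (2.81 and 3.06 FPKM in control, 3.85 and 4.11 in eKD2, log2 difference 0.34), and 0 in SK-N-MC. UHRF1 in RD-ES was at a log2 difference of -0.10, and DNMT3B and TET2 in SK-N-MC at 0.23 and -0.15.

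ZNF10 is 1 of many zinc finger genes, and those with a KRAB domain can bind TRIM28 as it does. Of the other 478 genes named ZNF and a number, 435 were tested, and their values leaned in opposite directions in the lines. In RD-ES 330 were higher and 105 lower in eKD2, with a median log2 difference of 0.12 against 0.03 for all genes. In SK-N-MC 132 were higher and 301 lower, with a median of -0.08 against 0.00 for all genes. When the RD-ES change was subtracted from the SK-N-MC change, 339 were lower and 96 higher, with a median of -0.22 against -0.05 for all genes. For that difference 43.7% of all genes tested were higher. By limma 0 of 435 passed the adjusted threshold in RD-ES, where 0.343% of all genes tested did, and 0 of 435 in SK-N-MC, where 0.323% did. At an unadjusted p under 0.05 there were 50 higher and 6 lower in RD-ES, 12.9% of those tested and near the 12.3% of all genes, and 6 higher and 29 lower in SK-N-MC, 8.05% against 13%.

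How far they leaned in RD-ES depended on how libraries were scaled. As deposited 75.9% of these genes were higher in RD-ES eKD2 (56.2% of all genes), and after median scaling or quantile normalization 61.6% were (44.3% and 49.3% of all genes). In SK-N-MC 30.3% were higher as deposited, 32.2% after median scaling and 28.3% after quantile normalization (47.6%, 49.5% and 47.2% of all genes). Leaving out 1 library of a line at a time gave 67.1% to 76.1% in RD-ES and 32.9% to 34.7% in SK-N-MC. Of all genes, 52.6% to 57.2% were higher in RD-ES and 45% to 49.6% in SK-N-MC in those fits. A narrower list held 221 genes whose translated transcript has a KRAB-like stretch and a C2H2 finger, of which 202 were tested. In RD-ES 160 were higher and 42 lower (median 0.14), where 56.2% of all genes were higher. In SK-N-MC 61 were higher and 140 lower (median -0.07), where 47.6% of all genes were higher. Many of these genes are alike in sequence and may share reads. Their median level per library was 6.71 to 7.68 FPKM in RD-ES and 6.79 to 7.53 in SK-N-MC for the genes named ZNF and a number.

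**Figure D4:**
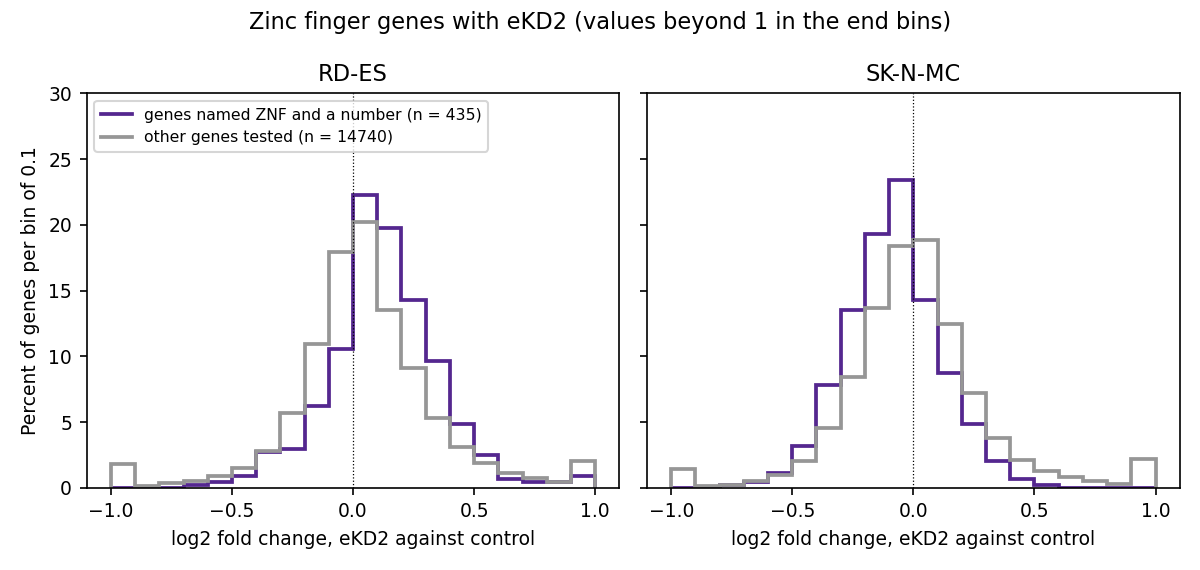
Distribution of the log2 fold change, eKD2 against control, of 435 genes named ZNF and a number (purple) and of 14740 other genes tested (grey), as percent of genes per bin of 0.1, in RD-ES (left) and SK-N-MC (right). ZNF10 is counted among the other genes, and values beyond 1 are in the end bins. The purple line lies to the right of 0 in RD-ES (median 0.12) and to the left of 0 in SK-N-MC (median -0.08).

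The genes with a pattern most like that of ZNF10 were found by Pearson's r of log2(FPKM + 1) over the 8 libraries among 13963 genes above 0 in all of them. This is a description, since the libraries share 4 groups and the 4 eKD2 values of ZNF10 set most of its spread. EEF1A2 (r = 0.965) was at 2.28 to 3.53 FPKM in control and 7.59 to 9.41 in eKD2, and MAP1B (r = 0.963) at 9.88 to 10.9 in control and 12.6 to 13.6 in eKD2. SALL4 (r = 0.959), PSD (r = 0.959) and SCN4A (r = 0.954) followed, all below 5 FPKM in every library. For TRIM28, whose level varied 1.35-fold over the 8 libraries, the nearest were AC092587.1 (r = 0.979), MYO1C (r = 0.954), ZNF512B (r = 0.941), AC006483.1 (r = 0.938) and AGRN (r = 0.937). All 5 had, like TRIM28, a higher value in the library numbered 2 in each of the 4 groups. AC092587.1 was listed next to 0 in both eKD2 1 libraries, so genes above 0 in all libraries include some that are in effect not measured in part of them.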

How the data were processed

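RNA-seq libraries from 2 Ewing sarcoma cell lines were compared (4 groups, 2 libraries each, grouped by the sample labels). Per the labels and methods, the authors prepared libraries with a kit that does not mark strand, checked reads with FastQC, aligned them to hg19 (GRCh37) with STAR and computed FPKM with cufflinks and Cuffnorm. The deposited values are FPKM per gene, and the read counts that the authors tested with DESeq2 were not used here. Genes with a mean below 1 FPKM were left out (15175 remained), and log2(FPKM + 1) was used. All 8 libraries entered 1 fit with limma 3.58.1 (lmFit, eBayes with trend; R 4.3.3) with a mean per group, and p-values were adjusted over all genes by the Benjamini-Hochberg method at a threshold of 0.05. The fit was tested on simulated data. With 2 libraries a group, the smallest two-sided p of an exact permutation test is 0.333. The methods of the study call the replicates of a condition biological duplicates. Neither the methods nor the labels say that these came from separate cultures, so p-values may still measure technical spread.

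The genes and lists were chosen with earlier results of these data known. Named were the 10 genes, LOXHD1, the genes near ZNF10, the 5 genes most like ZNF10 and TRIM28, and, where no gene of a list passed the adjusted threshold, the 2 genes per list and line with the smallest p. A gene and a marker on the lists are not reported here. No protein table was used, so zinc finger genes were taken by symbol, and transcripts were translated for the KRAB list, which was added after the data were seen. Sequence and windows of 75 bases came from GRCh37 and GENCODE v44lift37. Alternatives were another pseudocount (0.1), filters, scalings, fits, a replicate block and leaving out each library.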

Additional observations from a re-analysis of the deposited data

Results flagged for a closer look

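ATF7IP met the criterion for lines that move in opposite directions. Both eKD2 libraries lay above both control libraries in RD-ES (26.5 and 27.8 against 21.3 and 22.2 FPKM) and below both in SK-N-MC (21.6 and 19.1 against 26.7 and 24.7 FPKM). The RD-ES change subtracted from the SK-N-MC change was -0.63 on the log2 scale (limma adjusted p = 0.169, range over the alternatives 0.169 to 0.371), which does not pass the threshold. It lay between -0.72 and -0.54 over the alternatives. How many of all genes tested meet the same criterion was not counted, so meeting it does not set ATF7IP apart.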

How the results depend on the processing

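The counts of co-repressors past the adjusted threshold with eKD2 (0, 0 and 0 of 9 for RD-ES, SK-N-MC and their difference) held under every alternative run, and the count between the control libraries was 3 or 4. LOXHD1 in RD-ES had an adjusted p of 0.0595 with only the groups compared in the fit, and the difference of its changes was 0.42 with a pseudocount of 0.1. FPKM without read counts and 2 libraries a group limit the precision. Deviations of libraries with the same replicate number correlated weakly between the groups compared (correlation 0.027 to 0.056). Of the genes tested, 13.6% were higher and 10.2% lower in the library numbered 2 in all 4 groups. Whether the replicate number marks a shared effect was not tested. With a replicate block, 11 genes passed in RD-ES, 5 in SK-N-MC, 7 for the difference and 8690 between the controls, with 0, 0, 0 and 4 of the genes studied (ATF7IP entered, adjusted p = 0.0482).

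Signs turned for values near 0. Median scaling gave log2 differences in RD-ES of -0.062 (SETDB1), -0.055 (CBX5), -0.048 (PPHLN1), -0.0069 (ZNF140) and -0.034 (ZNF268), in SK-N-MC of 0.0068 (ZNF140) and 0.0066 (ZNF891), and between the controls of -0.13 (CBX3), -0.13 (CBX5) and -0.042 (MORC2). Quantile normalization gave -0.0048 (SETDB1), -0.0020 (ZNF140) and -0.022 (ZNF268) in RD-ES, -0.034 (ZNF26) in SK-N-MC and 0.051 (TRIM28) between the controls. The cause was not tested.

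Leaving out 1 library at a time gave, in RD-ES, -0.058 to 0.077 for SETDB1, -0.14 to 0.025 for CBX3, -0.22 to 0.21 for MPHOSPH8, -0.0094 to 0.057 for PPHLN1, -0.34 to 0.22 for MORC2, -0.21 to 0.020 for UHRF1, -0.017 to 0.24 for TRIM33, -0.25 to 0.47 for ZNF26, -0.043 to 0.16 for ZNF140 and -0.18 to 0.25 for ZNF268. In SK-N-MC it gave -0.21 to 0.0028 for TRIM28, -0.010 to 0.27 for SETDB1, -0.17 to 0.26 for ZNF26, -0.030 to 0.11 for ZNF84, -0.10 to 0.10 for ZNF140, -0.056 to 0.051 for ZNF891 and -0.12 to 0.050 for ZNF268. For the difference between the lines it gave -0.0037 to 0.22 for TRIM28 and -0.019 to 0.26 for SETDB1, and between the controls -0.25 to 0.13 for ZNF10, -0.060 to 0.11 for CBX3 and -0.0087 to 0.051 for CBX5. ZNF10 in SK-N-MC was at 2.495 without control 1 and 2.87 without control 2. MORC2 and MPHOSPH8 in RD-ES turned from -0.06 and 0.00 to 0.22 and 0.21 without eKD2 2. Other values kept their sign but moved by over 1.5 times. These ranges in RD-ES were 0.30 to 0.63 for ATRX, 0.29 to 0.66 for ZNF605, 0.088 to 0.33 for ZNF84, 0.12 to 0.25 for ZNF891 and -0.25 to -0.094 for CHD3. In SK-N-MC they were 0.013 to 0.20 for CBX3, 0.0084 to 0.26 for FAM208A, 0.27 to 0.68 for TRIM66, -0.41 to -0.13 for MTA3, -0.34 to -0.15 for MBD2, -0.22 to -0.012 for ZNF605 and -1.71 to -0.31 for EHMT1. Between the controls they were -0.22 to -0.0017 for TRIM28 and -0.24 to -0.053 for CBX1.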
